A study of Mus musculus with 6 samples.

Results

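The 10 genes described here are known as genes of the neutrophil, although several are also expressed by other cell types. They include the calprotectin pair S100a8 and S100a9 and the granule genes Ngp, Camp, Ltf, Lcn2 and Mpo. The others are the secreted resistin family gene Retnlg and the receptors Csf3r and Cxcr2. The 10 genes were taken by symbol from the deposited table of 22183 genes, in which each symbol had 1 row and 0 duplicate rows were present. All 10 passed the filter on low counts that left 14005 genes for testing. RNA sequencing had been done on cells described as peritoneal endothelial cells (ECs). They came from wild-type male C57BL/6J mice, 8 to 10 weeks old when treatment began, with 3 mice in each group and 1 library per mouse. PD mice had been given PD fluid with 4.25% glucose by daily intraperitoneal injection for 6 weeks, as a model of peritoneal dialysis (PD), and saline mice had been injected with saline over the same time. Sequenced cells were described in the sample labels as CD31+ cells from peritoneal tissue sorted with magnetic beads. The supplementary methods instead describe collagenase digestion of the mesentery and a flow cytometric gate for CD31+ CD45- cells. CD31 (Pecam1) is carried by ECs and also by platelets and several leukocytes, among them neutrophils, and CD45 (Ptprc) by nearly all leukocytes.

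Neutrophils mature in the bone marrow and fill their granules in stages. Azurophil granules, which hold myeloperoxidase and serine proteases, are made first, and specific granules, which hold lactoferrin, cathelicidin and lipocalin 2, are made later, largely under the transcription factor C/EBPε. Calprotectin is a cytosolic protein of mature neutrophils and of some monocytes and macrophages, and in the peritoneum neutrophils are known as the first leukocytes to cross the microvessels when inflammation begins, drawn by CXC chemokines that bind Cxcr2.

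Counts per mouse summed to between 21973426 and 26374292 over all genes, and expression is given as CPM, the count scaled to a common library size after TMM adjustment. Endothelial and leukocyte genes were set beside the endothelial label. Of 12 endothelial markers, all were detected in every mouse, and their summed level ran from 1102 to 1112 CPM in saline mice and from 1753 to 1861 CPM in PD mice. Ptprc, the gene of CD45, was at a mean of 2373 ± 127 CPM (SD, n = 3) with saline and 1473 ± 63.6 CPM with PD fluid. Pecam1 was below Ptprc in both groups, at 469 ± 19.4 CPM with saline and 513.5 ± 7.85 CPM with PD fluid. The summed level of 8 pan-leukocyte genes ran from 12110 to 12730 CPM in saline mice and from 9059 to 9426 CPM in PD mice. It was above the endothelial sum in every mouse, so leukocyte transcripts were plentiful in every library. In edgeR at an adjusted p threshold of 0.05, 7 of the 8 genes were lower and Laptm5 was higher. All 8 were lower when libraries were scaled to the endothelial markers, but so were 8976 of the 14005 tested genes. In bulk RNA, a change in the number of cells of a type and a change in the RNA per cell cannot be told apart, which holds for every value below.

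Promoter sequences are shown for S100a9, Ngp and Ltf, which carry letters read by C/EBP factors and were among the most changed genes, and for Camp and Cxcr2, which do not carry them and stood at the opposite ends of the response. The sequences are from RefSeq (GRCm38.p6), 5′ to 3′ on the strand of the gene, and start 250 bases before the RefSeq transcription start. They end there or, where the GENCODE M21 gene begins earlier, at the base before it. Capitals mark the letters TTGCNNAA or, on the other strand, TTNNGCAA. S100a9 is shown over chr3:90695722-90695971 on the minus strand (250 bases), Ngp over chr9:110419558-110419746 on the plus strand (189 bases), Ltf over chr9:111019042-111019270 on the plus strand (229 bases), Camp over chr9:109849618-109849706 on the minus strand (89 bases) and Cxcr2 over chr1:74153744-74153988 on the plus strand (245 bases).
S100a9: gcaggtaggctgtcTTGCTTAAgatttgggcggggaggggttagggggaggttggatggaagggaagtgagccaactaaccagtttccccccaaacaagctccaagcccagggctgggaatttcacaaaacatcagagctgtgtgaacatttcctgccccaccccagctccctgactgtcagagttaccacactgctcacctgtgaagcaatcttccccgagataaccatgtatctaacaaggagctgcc
Ngp: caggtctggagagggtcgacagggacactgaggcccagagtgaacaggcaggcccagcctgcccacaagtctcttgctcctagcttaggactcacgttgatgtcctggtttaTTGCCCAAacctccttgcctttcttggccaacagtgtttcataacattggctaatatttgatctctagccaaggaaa
Ltf: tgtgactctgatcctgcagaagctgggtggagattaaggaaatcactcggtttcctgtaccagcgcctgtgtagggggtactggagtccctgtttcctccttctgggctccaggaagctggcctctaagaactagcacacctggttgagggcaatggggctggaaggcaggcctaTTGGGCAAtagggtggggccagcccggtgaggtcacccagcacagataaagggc
Camp: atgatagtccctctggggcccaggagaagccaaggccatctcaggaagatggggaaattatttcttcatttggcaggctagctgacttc
Cxcr2: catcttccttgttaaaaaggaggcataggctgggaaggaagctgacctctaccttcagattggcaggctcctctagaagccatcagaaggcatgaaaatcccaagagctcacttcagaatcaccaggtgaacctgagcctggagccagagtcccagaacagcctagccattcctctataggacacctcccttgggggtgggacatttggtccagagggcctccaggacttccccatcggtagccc

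Over the whole 250 bases before the start, the C/EBP letters were present in 5 of the 10 promoters, those of S100a9, Ngp, Ltf, Lcn2 and Retnlg, and in 9.56% of the 32851 mouse promoters of the same length. The match lay 236 bases before the start in S100a9 (TTGCTTAA), 216 before it in Lcn2 (TTGCTCAA), 246 before it in Retnlg (TTCTGCAA) and 75 before it in Ltf (TTGGGCAA). Ngp had a match 138 bases before the start (TTGCCCAA) and another 11 bases before it (TTGGGCAA), the latter inside the GENCODE gene and not shown. The whole Lcn2 window, with its match, also lay inside the GENCODE gene. GAGGAAGT, letters read by PU.1 (Spi1), or ACTTCCTC on the other strand, were present in 2 of the 10 promoters, those of S100a8 and Mpo, and in 2.44% of all promoters. Such matches describe the letters in these windows and were not tested as binding sites.

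PD mice had higher transcript levels for 9 of the 10 genes. The threshold was an adjusted p of 0.05, from the quasi-likelihood test of edgeR with p-values adjusted over all tested genes by the Benjamini-Hochberg method. By the same rule 31.1% of the 14005 tested genes were higher. Cxcr2 was the exception. In the same 9 genes all PD mice lay above all saline mice, which was so in 34% of tested genes. A log2 fold change over 2 together with the adjusted p was reached by all 9, against 4.53% of tested genes. None of the 10 was lower, against 27.8% of tested genes, with a count of 0 also at an unadjusted p under 0.05 in edgeR, and with 0 lower by DESeq2 and 0 by limma-voom. Camp, Ltf and Ngp had so few saline counts that they passed the filter through the PD mice. They could hardly have been called lower, so for them this comparison says little. The median log2 fold change of the 10 genes was 4.79, and that of all tested genes was 0.02. Summed over the 10 genes, expression was 22.45, 22.1 and 19.2 CPM in the saline mice and 394, 402 and 434 CPM in the PD mice.

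**Figure D1:**
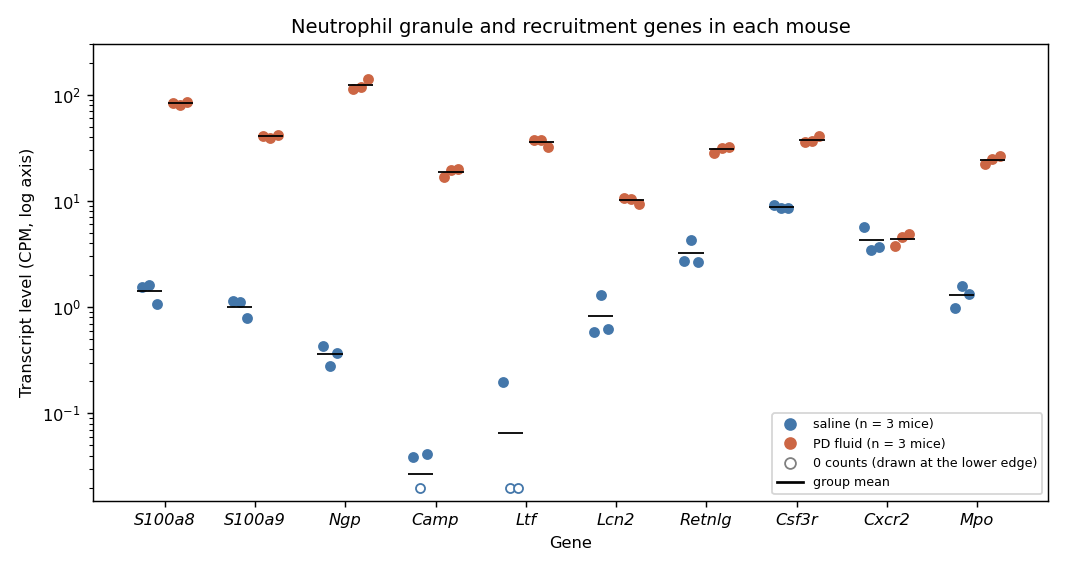
Transcript level of each of the 10 genes in each mouse, in CPM on a log axis, for saline (blue) and PD fluid (orange). Each point is 1 mouse, lines are group means, and open circles mark mice with 0 counts. The groups are apart for every gene but Cxcr2, with the lowest saline levels in Camp and Ltf.

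S100a8 and S100a9 encode the 2 subunits of calprotectin, a calcium- and zinc-binding complex that neutrophils release at sites of inflammation. S100a8 was measured at 1.56, 1.61 and 1.08 CPM in the saline mice and at 84.0, 79.4 and 85.5 CPM in the PD mice. All PD mice lay far above the saline mice, and S100a8 was 58.4-fold higher (log2 fold change 5.87, SE 0.13, adjusted p = 3.98e-11 in edgeR). S100a9 was measured at 1.13, 1.11 and 0.787 CPM in the saline mice and at 40.6, 39.25 and 41.7 CPM in the PD mice. The groups again did not overlap, and S100a9 was 40.0-fold higher (log2 fold change 5.32, SE 0.14, adjusted p = 2.77e-10 in edgeR). Among the PD mice the coefficient of variation was 3.79% for S100a8 and 3.06% for S100a9, where counting error alone gives 2.23% and 3.18%.

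The genes lie next to each other on chromosome 3 (GRCm38), S100a8 at 90668978 to 90670035 on the plus strand and S100a9 at 90692632 to 90695721 on the minus strand, 22.6 kb apart. Compared per length, as FPKM within a mouse, the level of S100a8 was 1.45, 1.54 and 1.45 times that of S100a9 in the saline mice and 2.19, 2.13 and 2.16 times in the PD mice. The ratio was therefore higher in every PD mouse (1.48 ± 0.0502 against 2.16 ± 0.0259, SD, n = 3), although an exact two-sided permutation test of 3 against 3 mice can give no p below the 0.1 found here (0.1 after adjustment over the 3 ratios tested). The pair made up 12%, 12.3% and 9.72% of the counts of the 10 genes in the saline mice and 31.6%, 29.5% and 29.3% in the PD mice. Within 200 kb on either side of the pair, 8 other genes were tested, of which 4 were higher, 3 lower and 1 not called, with log2 fold changes from -0.57 (Snapin) to 1.60 (S100a4) and a median of 0.26. None of these neighbours approached the change of the pair.

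Among S100 genes elsewhere in the family, 8 of 13 were tested, 5 were higher and 3 were not called, with a median log2 fold change of 0.72. With endothelial scaling 2 were higher and 3 lower, and with pan-leukocyte scaling 6 were higher. S100a4, S100a6, S100a1 and S100a16, which are calcium-binding proteins of many cell types, were higher by 1.60, 0.98, 0.80 and 0.73 on the log2 scale. With libraries scaled to the endothelial markers, S100a1 and S100a16 were not called (0.11 and 0.03) and S100a11 turned from 0.37 to -0.33. S100a5 and S100g, both listed here as family members, had at most 1 count in every mouse. Within this gene family S100a8 and S100a9 had the largest changes under every scaling tried.

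Ngp, Camp, Ltf and Lcn2 belong to the specific granule. Ngp encodes neutrophilic granule protein, a relative of the cystatins and cathelicidins that is made at the myelocyte stage. It was counted 11, 6 and 9 times in the saline mice and 3106, 2827 and 3094 times in the PD mice, or 0.430, 0.277 and 0.373 CPM against 114, 119 and 140.2 CPM. Saline mice held only a few reads of this gene, and every PD mouse was over 100 CPM above them. Ngp was 337-fold higher (log2 fold change 8.40, SE 0.16, adjusted p = 1.15e-11 in edgeR), and its rank by p was 21 of all tested genes.

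Camp encodes the cathelicidin antimicrobial peptide, which disrupts bacterial membranes. It was counted 1, 0 and 1 times in the saline mice and 454, 467 and 442 times in the PD mice. Transcripts were at or under the floor of 3 counts in every saline mouse and well above it in every PD mouse, at 16.7, 19.6 and 20.03 CPM. The fitted log2 fold change was 9.14 (SE 0.31, adjusted p = 1.97e-09 in edgeR), but its size rests on 2 saline counts in all, and the ratio of summed counts per library size was 666 with an exact 95% interval of 184 to 5506 that covers counting error only.

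Ltf encodes lactoferrin, an iron-binding protein that deprives bacteria of iron. It was counted 5, 0 and 0 times in the saline mice and 1027, 891 and 717 times in the PD mice, or 37.8, 37.4 and 32.5 CPM in the latter. All saline counts came from saline mouse 1, and the groups did not overlap. The fitted log2 fold change was 8.90 (SE 0.35, adjusted p = 5.78e-09 in edgeR), with a ratio of summed counts of 515 (exact 95% interval 220 to 1588). Without saline mouse 1, the remaining saline mice had 0 counts, and Ltf in PD mice was at least 259-fold higher than the level that 3 counts would give in the smaller of their libraries (0.138 CPM).

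Lcn2 encodes lipocalin 2, which binds bacterial siderophores and is also made by epithelial cells, macrophages and ECs under inflammatory stimuli. It was measured at 0.586, 1.29 and 0.621 CPM in the saline mice and at 10.7, 10.5 and 9.38 CPM in the PD mice. Saline mouse 2 was higher than the other saline mice and still far below each PD mouse. Lcn2 was 12.4-fold higher (log2 fold change 3.63, SE 0.26, adjusted p = 7.68e-07 in edgeR), a smaller change than that of the other specific granule genes here.

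Camp, Ngp and Ltf lie in this order on chromosome 9 (GRCm38), Camp at 109847379 to 109849617 on the minus strand, Ngp at 110419747 to 110423012 and Ltf at 111019271 to 111042767, both on the plus strand, with gaps of 570.1 and 596.3 kb between them. Between Camp and Ltf, 19 other genes were tested. Of these 9 were higher, 3 were lower and 7 were not called, and their median log2 fold change was 0.14. The range ran from -0.74 for Elp6, an Elongator complex subunit, to 1.23 for Pth1r, the receptor of parathyroid hormone. Ngp, Camp and Ltf each differed by over 8 on the same scale, so that the high values stood at 3 separate genes of the interval and not along it.

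**Figure D2:**
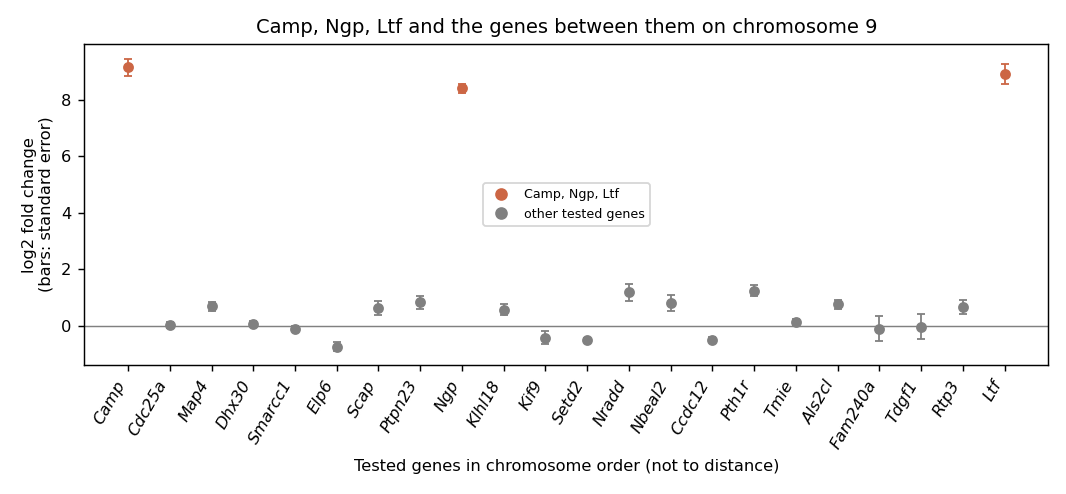
Log2 fold change (PD fluid against saline, edgeR) of the tested genes from Camp to Ltf on chromosome 9, in chromosome order and not to distance. Points are estimates from 3 mice per group and bars are standard errors. Camp, Ngp and Ltf (orange) lie above 8, and the 19 genes between them (grey) lie between -0.74 and 1.23.

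Other genes of specific and gelatinase granules were listed to set beside these 4. Of 18 in the table, 13 were tested, 9 were higher, 2 lower and 2 not called, with a median log2 fold change of 2.44 (9 higher and 4 lower with endothelial scaling, 11 higher with pan-leukocyte scaling). Mmp8, the neutrophil collagenase, was higher by 4.97 (SE 0.24, 0.413 ± 0.175 to 13.3 ± 1.18 CPM, SD, n = 3). Cd177, a surface protein stored in specific granules, was higher by 3.91 (SE 0.19, 0.935 ± 0.207 to 13.97 ± 0.853 CPM). Chil3, a chitinase-like lectin of neutrophils, monocytes and macrophages, was higher by 4.12 (SE 0.14). Wfdc21, a whey acidic protein family gene, had 1, 0 and 0 counts in the saline mice and 29, 27 and 30 in the PD mice, a fitted log2 difference of 5.95. With 1 saline count in all, the ratio of its summed counts was 84.1, with an exact 95% interval of 14.7 to 3358.

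Pglyrp1, a peptidoglycan-binding protein, and Cybb, the catalytic subunit of the phagocyte oxidase, were lower by edgeR (-0.53 and -0.44), and neither was called when libraries were scaled to the 8 pan-leukocyte genes (-0.11 and -0.02). The stefin genes Stfa2 and Stfa3 were at 3 counts or fewer in every mouse. Stfa1 had 0, 5 and 3 counts in the PD mice and Stfa2l1 had 2, 1 and 4, with 0 in all saline mice for both.

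Mpo encodes myeloperoxidase, the azurophil granule enzyme that makes hypochlorous acid. It was measured at 0.976, 1.57 and 1.33 CPM in the saline mice and at 22.1, 24.7 and 26.6 CPM in the PD mice. The lowest PD mouse was well above the highest saline mouse. Mpo was 19.1-fold higher (log2 fold change 4.25, SE 0.18, adjusted p = 8.78e-09 in edgeR). It lies on chromosome 11 at 87793581 to 87804413 on the plus strand (GRCm38).

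Of 4 serine proteases tested that share the azurophil granule with myeloperoxidase, 3 were higher, on few counts. Elane, neutrophil elastase, had 0, 5 and 7 counts in the saline mice and 79, 86 and 60 in the PD mice, and was higher by 4.15 on the log2 scale (SE 0.53, adjusted p = 7.21e-05 in edgeR). Prtn3, proteinase 3, had 4, 4 and 1 counts against 66, 50 and 60 and was higher by 4.20 (SE 0.45, adjusted p = 1.89e-05 in edgeR). Ctsg, cathepsin G, had 4, 0 and 5 counts against 40, 36 and 22 and was higher by 3.36 (SE 0.59, adjusted p = 0.000664 in edgeR). The groups did not overlap for these 3 genes, at 86 counts or fewer per PD mouse. Prss57, neutrophil serine protease 4, had 13, 9 and 20 counts in the saline mice and 11, 19 and 30 in the PD mice, and was not called (log2 fold change 0.52, SE 0.50, adjusted p = 0.398 in edgeR).

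Of 7 azurophil genes tested besides Mpo, 4 were higher, 1 was lower and 2 were not called, with a median log2 fold change of 0.61 (3 higher and 2 lower with endothelial scaling, 5 and 1 with pan-leukocyte scaling). Ctsc, the protease that activates the granule proteases and is made by many leukocytes, was higher by 0.61, but not with endothelial scaling (-0.09). Serpinb1a, an inhibitor of the same proteases, was lower by 0.95 (log2 fold change -0.95, SE 0.09, 364 ± 29.9 to 188 ± 22.7 CPM), and was lower under each scaling. Ms4a3, a marker of granulocyte-monocyte progenitors, had 0, 0 and 1 counts in the saline mice and 4, 10 and 7 in the PD mice and did not pass the filter.

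Retnlg encodes resistin-like gamma, a secreted protein of bone marrow granulocytes. It was measured at 2.73, 4.29 and 2.65 CPM in the saline mice and at 28.3, 31.4 and 32.1 CPM in the PD mice. No mouse of a group reached the other group. Retnlg was 9.55-fold higher (log2 fold change 3.26, SE 0.17, adjusted p = 6.04e-08 in edgeR). It lies on chromosome 16 at 48872621 to 48874496 on the plus strand, and Lcn2 on chromosome 2 at 32384633 to 32388252 on the minus strand (GRCm38).

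Csf3r encodes the receptor of granulocyte colony-stimulating factor, which drives neutrophil production and survival. It was measured at 9.14, 8.49 and 8.65 CPM in the saline mice and at 36.1, 36.2 and 41.1 CPM in the PD mice. Saline mice differed little among themselves, and every PD mouse was higher. Csf3r was 4.31-fold higher (log2 fold change 2.11, SE 0.10, adjusted p = 3.27e-08 in edgeR). With endothelial scaling the log2 difference was 1.41. The gene lies on chromosome 4 at 126024550 to 126044440 on the plus strand (GRCm38).

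Cxcr2 encodes the receptor for the CXC chemokines that draw neutrophils out of the marrow and into tissue, and is also found on ECs. It was measured at 5.66, 3.46 and 3.64 CPM in the saline mice and at 3.75, 4.61 and 4.89 CPM in the PD mice. The groups overlapped, with saline mouse 1 above every PD mouse and the other saline mice below all of them. The log2 fold change was 0.05 with a 95% interval of -0.45 to 0.55 (adjusted p = 0.874 in edgeR), it took the opposite sign with endothelial scaling (-0.65, adjusted p = 0.0197 in edgeR), and it was 0.46 with pan-leukocyte scaling. Over all alternatives its adjusted p ran from 0.0197 to 0.954 (edgeR, DESeq2 and limma-voom), and its sign turned with 3 of the mice when each was left out. A change beyond the bounds of that interval was not found under TMM scaling, at 308 counts in all saline mice and 320 in all PD mice. Cxcr2 lies on chromosome 1 at 74153989 to 74161246 on the plus strand (GRCm38). Its close relative Cxcr1 had 5, 0 and 3 counts in the saline mice and 10, 5 and 1 in the PD mice and was not tested.

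The other 9 genes kept their direction under both marker scalings. Endothelial scaling moved the median log2 fold change of all tested genes by -0.697 and pan-leukocyte scaling moved it by 0.420. The endothelial sum (1102 to 1112 CPM in saline mice) leaned on Pecam1, at a saline mean of 469 CPM. Pecam1 was not called with TMM scaling (0.13), while the other 11 markers were higher. With endothelial scaling Pecam1 was lower (-0.57) and 6 of the 12 markers were still higher, so this scaling did not level its own markers. Pan-leukocyte scaling did not level its own 8 genes either, of which 2 were higher and 2 lower. The median of the 10 genes was 4.79 with TMM, 4.09 with endothelial and 5.21 with pan-leukocyte scaling. Of all tested genes, 12.1% were higher with endothelial scaling and 59.8% with pan-leukocyte scaling. Lower genes numbered 8976 of 14005 with endothelial scaling and 698 with pan-leukocyte scaling, and the list counts under these scalings are to be read beside these shares.

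**Figure D3:**
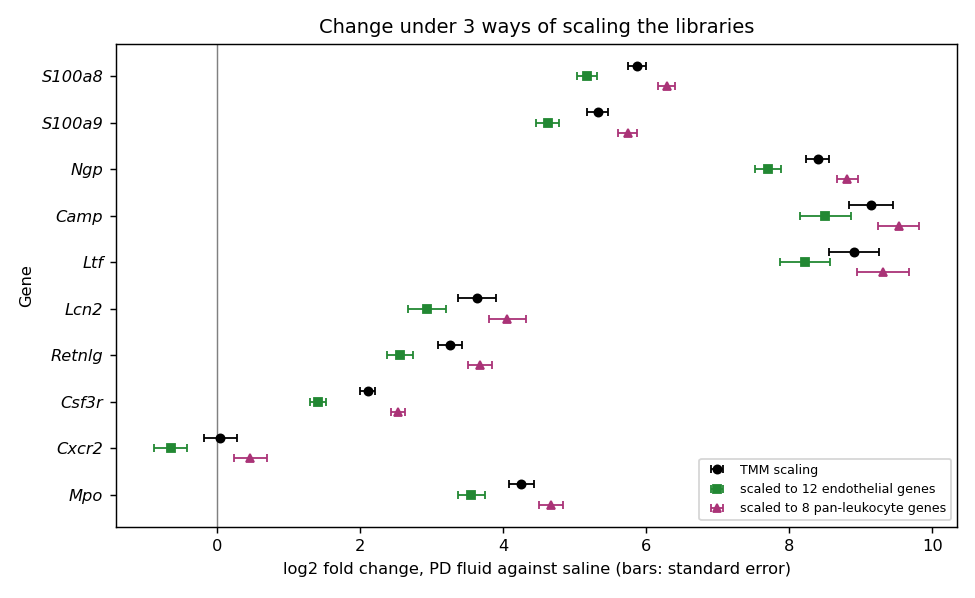
Log2 fold change (PD fluid against saline, edgeR) of the 10 genes with libraries scaled by TMM, to 12 endothelial genes or to 8 pan-leukocyte genes. Points are estimates from 3 mice per group and bars are standard errors. For 9 genes all estimates lie above 0, and the estimate for Cxcr2 lies at 0.05, -0.65 and 0.46.

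Levels can be set against one another between genes as FPKM, which divides by transcript length. In PD mice the order was S100a8 (171 ± 7.11, SD, n = 3), Ngp (102 ± 8.80), S100a9 (79.2 ± 2.34), Retnlg (51.7 ± 2.18) and Camp (24.8 ± 1.82), with no overlap between neighbours. Then followed Ltf (15.7 ± 3.31), Csf3r (11.7 ± 0.655), Lcn2 (11.2 ± 1.08) and Mpo (10.5 ± 0.493), whose neighbours overlapped, and Cxcr2 was last at 1.58 ± 0.283. In saline mice Retnlg was first at 5.41 ± 1.499 FPKM and Ltf (0.0450 ± 0.0779) and Camp (0.0353 ± 0.0307) were last. Cxcr2 stood in the middle of the order in saline mice, and its neighbours S100a9 (1.96 ± 0.368) and Lcn2 (0.904 ± 0.424) overlapped with its 1.40 ± 0.422.

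Ratios within a mouse were also compared for the receptors and Mpo. The FPKM of Csf3r was 2.01 ± 0.44 times that of Cxcr2 in saline mice and 7.55 ± 1.36 times in PD mice (SD, n = 3). The FPKM of Mpo was 0.204 ± 0.0551 times that of Csf3r in saline mice and 0.895 ± 0.0455 times in PD mice. In each case the groups did not overlap, and the exact two-sided permutation p was 0.1, the smallest that 3 against 3 mice can give (0.1 after adjustment over 3 ratios).

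Genes of the mature neutrophil surface and of its signalling were listed as a further group, of which 18 of 20 were tested. In PD mice 16 were higher, 1 was lower and 1 was not called, with a median log2 fold change of 2.84 (16 and 2 with endothelial scaling, 17 and 1 with pan-leukocyte scaling). Clec4d, a lectin receptor of myeloid cells, was higher by 5.42 (SE 0.15, 1.03 ± 0.252 to 44.1 ± 1.74 CPM). Fpr1, the formyl peptide receptor by which neutrophils sense bacteria, was higher by 4.25 (SE 0.14, 2.26 ± 0.410 to 43.0 ± 1.73 CPM), and Acod1, which makes itaconate in activated myeloid cells, by 3.89 (SE 0.20). Mrgpra2b was higher by 5.13 (SE 0.45), but it has close copies in the genome between which reads can be split. Ly6g, the surface protein by which mouse neutrophils are commonly identified, had 0, 0 and 3 counts in the saline mice and 14, 10 and 4 in the PD mice, too few to be tested.

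Attraction of neutrophils was followed through 21 ligands, growth factors and lipid mediator genes, of which 20 were tested, 15 were higher and 5 were not called, with a median log2 fold change of 1.95 (13 higher and 4 lower with endothelial scaling, 19 higher with pan-leukocyte scaling). Of the tested ligands of Cxcr2, Cxcl1, Cxcl2, Cxcl3 and Cxcl5 were higher and Ppbp was not called. Cxcl1 was higher by 2.59 (SE 0.11, 9.99 ± 1.37 to 60.03 ± 1.08 CPM) and Cxcl2 by 3.43 (SE 0.11, 12.9 ± 1.92 to 138 ± 9.06 CPM). Cxcl3 had 3, 2 and 2 counts in the saline mice, all at or under the floor of 3 counts, and 36, 28 and 21 in the PD mice, and the ratio of its summed counts was 11.9 (exact 95% interval 5.52 to 30.4). Cxcl5 had 0 counts in all saline mice and 49, 42 and 44 in the PD mice, and was at least 13.4-fold higher than the level 3 counts would give in a saline library. Placing Cxcl5 at that bound left the list median at 1.95. Ppbp, made mainly by platelets, was at 0.14 (adjusted p = 0.564 in edgeR), and Cxcl15 had 0 counts in every mouse.

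Csf3, the ligand of Csf3r, was counted 17, 6 and 1 times in the saline mice and 289, 268 and 248 times in the PD mice. Saline mice varied widely at these low counts and all lay below the PD mice. Csf3 was higher by 5.02 on the log2 scale (SE 0.39, adjusted p = 1.48e-06 in edgeR), so that transcripts of ligand and receptor were both higher in PD mice. Cxcr4, which retains neutrophils in the marrow, was not called under TMM scaling (0.06), and was -0.64 with endothelial and 0.48 with pan-leukocyte scaling.

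Of 11 rolling and adhesion genes tested, some of which also stand in the lists above, 7 were higher, 1 was lower and 3 were not called, with a median log2 fold change of 0.73. With endothelial scaling 5 were higher and 5 lower, and with pan-leukocyte scaling 10 were higher and 1 lower. Sele, E-selectin of activated ECs, was higher by 3.04 (SE 0.11, 4.70 ± 0.268 to 38.8 ± 3.23 CPM). Selp, P-selectin of ECs and platelets, was higher by 1.71 (SE 0.07), and Vcam1, an EC adhesion molecule, by 1.13 (SE 0.07). Itgam, the CD11b integrin chain of neutrophils, monocytes and macrophages, was higher by 2.69 (SE 0.13, 18.6 ± 3.90 to 120 ± 8.09 CPM).

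Receptors and carriers of the proteins these genes encode were higher for 7 of 8 tested genes, with a median log2 fold change of 1.07 (4 with endothelial and 7 with pan-leukocyte scaling). Cd14, a co-receptor of Tlr4, was higher by 3.19 (SE 0.07), Fpr2, a receptor for cathelicidin, by 3.43 (SE 0.38), Lrp1, which takes up lactoferrin, by 2.77 (SE 0.22), and P2rx7, on which cathelicidin also acts, by 1.38 (SE 0.11). Tlr4, which calprotectin can activate, was higher by 0.75 with TMM scaling and was not called with endothelial scaling (0.05), as were its partner Ly96 (0.06) and the lipocalin 2 receptor Slc22a17 (0.00). Ager, another calprotectin receptor, was not called (0.64, adjusted p = 0.309 in edgeR).

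Among 8 granulocyte transcription factors tested, 5 were higher, 2 lower and 1 not called, with a median log2 fold change of 0.89 (4 and 4 with endothelial scaling, 7 and 0 with pan-leukocyte scaling). Cebpe, the factor of specific granule genes, was counted 4, 3 and 9 times in the saline mice and 57, 40 and 46 times in the PD mice and was higher by 3.10 (SE 0.43, adjusted p = 0.000121 in edgeR). Cebpb, Cebpa and Cebpd, of which Cebpb acts in many inflamed cell types, were higher by 2.33, 2.30 and 1.3. Spi1 was higher by 0.47 with TMM scaling and lower with endothelial scaling (-0.23). Gfi1 was the factor not called (0.067, adjusted p = 0.689 in edgeR), and it was lower with endothelial (-0.635) and higher with pan-leukocyte scaling (0.492). Myb and Runx1, factors of immature haematopoietic cells, were lower by edgeR (-0.55 and -0.21), while with pan-leukocyte scaling Myb was not called (-0.13) and Runx1 was higher (0.21).

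**Figure D4:**
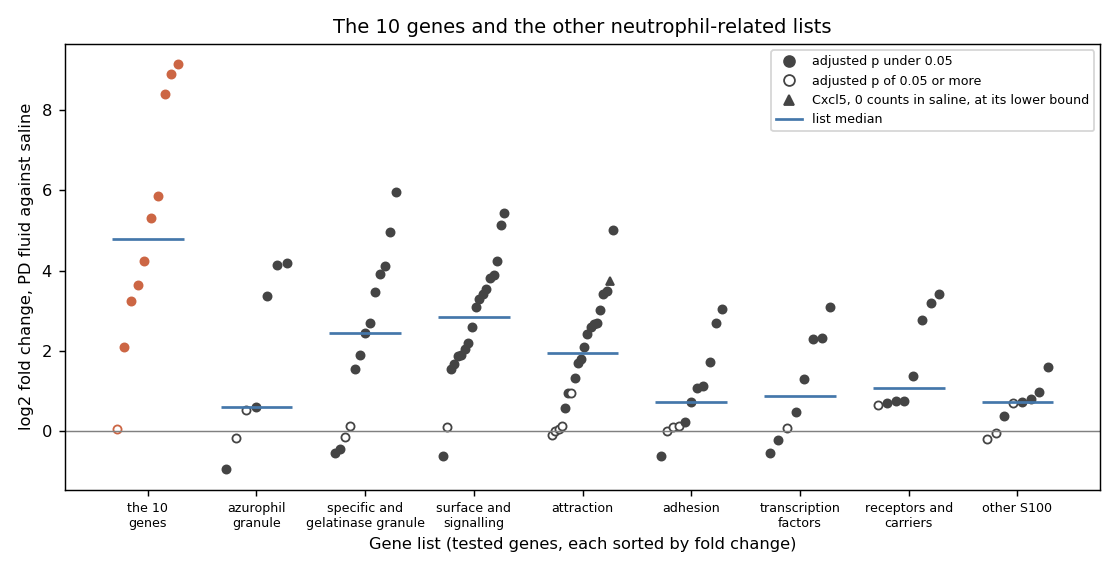
Log2 fold change (PD fluid against saline, edgeR) of each tested gene in the 10-gene group and in 8 further lists. Filled points have an adjusted p under 0.05, open points do not, lines are list medians, and the triangle is Cxcl5 at its lower bound. The median is 4.79 for the 10 genes and between 0.61 and 2.84 for the other lists.

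Markers of other cell types moved beside these results. Of 10 tested neutrophil markers outside the 10 genes, 10 were higher, against 31.1% of tested genes. All of them also stand in the granule, surface or transcription factor lists above, so this count adds no further genes. Prss57, Serpinb1a, Pglyrp1 and Cybb of those lists, not called or lower, are not among these markers. Elane, Prtn3, Ctsg, Mrgpra2b, Cebpe and Mmp8 had few saline counts and passed the filter through the PD mice. They could hardly have been called lower, so for them the comparison with 31.1% says little. The summed level of the marker list went from between 25.9 and 29.5 CPM to between 169 and 180 CPM. Most of this sum came from Mmp9, which also stands in the gelatinase granule list. Its mean was 19.0 ± 2.23 CPM with saline and 103 ± 5.44 CPM with PD fluid (SD, n = 3), so the sum mainly follows 1 gene. Ly6g, Stfa2l1, Stfa3 and Cxcr1 were too low to be tested. All 12 macrophage markers were higher, from between 2670 and 2815 CPM in sum to between 10730 and 11580 CPM. Of 7 monocyte markers 5 were higher and 2 lower (1524 to 1715 CPM in saline mice, 1814 to 1849 CPM in PD mice), and of 6 eosinophil markers tested 5 were higher and 1 lower (43.8 to 45.2 CPM, 39.6 to 44.4 CPM). The defining eosinophil genes Epx and Prg2 averaged 0.0812 and 4.75 CPM with saline and 1.89 and 13.4 CPM with PD fluid, Epx on 2, 0 and 4 saline counts. Epx and Siglecf, another gene of this list, passed the filter through the PD mice and could hardly have been called lower. The lower gene was Il5ra, the highest of the list in saline mice, at 34.5 ± 0.570 CPM with saline and 13.97 ± 1.35 CPM with PD fluid (log2 fold change -1.31).

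B cell markers were lower for 5 of 5 genes, from between 5012 and 5303 CPM in sum to between 2358 and 2390 CPM. All 7 pancreatic acinar markers (1.09 to 3.37 CPM against 6505 to 7424 CPM), all 6 mesothelial markers (13.5 to 17.2 CPM against 147 to 172 CPM) and all 5 fibroblast markers (71.8 to 76.8 CPM against 661 to 749 CPM) were higher. Of 6 mast cell markers 5 were higher with TMM scaling and 0 with endothelial scaling. The T and NK cell list had 1 gene higher and 2 lower of 7, the erythroid list 1 higher and 1 lower of 5, and the platelet list 1 higher of 2 tested. These 3 lists had no gene higher but Pf4 with endothelial scaling, with 7, 4 and 1 genes lower, and 5, 3 and 2 genes higher with pan-leukocyte scaling. Of all 14005 tested genes, 8976 were lower with endothelial scaling and 8381 higher with pan-leukocyte scaling. The part of these cell types in the levels of the 10 genes was not tested.

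The genes whose level over the 6 mice was most like that of each member were found by Euclidean distance between centred log2 CPM profiles, as a description over 6 libraries. Log2 CPM was taken with a prior count of 2, which flattens differences between genes near 0 counts. The distance follows mainly the size of the step between the groups. Genes near 0 in saline mice with a large step therefore come out close together. For Ngp they were Cuzd1, Camp and Pnliprp2 (distances 0.435, 0.893 and 0.898), for Camp they were Pla2g1b, Serpini2 and Ngp (0.488, 0.499 and 0.893), and for Ltf they were Cuzd1, Pnliprp2 and Ngp (1.06, 1.17 and 1.24). Cuzd1, Pnliprp2, Pla2g1b and Serpini2 are known as pancreatic genes and were at or near 0 CPM in saline mice. The nearest profiles to the 3 genes on chromosome 9 thus held both granule genes and pancreatic ones, and a shared source was not tested. S100a8 was nearest to Reg2, Reg3d and Cckar (0.248, 0.517 and 0.538), also genes of the pancreas, and S100a9 to Ccl8, Apoa4 and Try10 (0.474, 0.534 and 0.585).

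For Lcn2 the nearest genes were Pcdh20, Retnlg and Cd177 (0.525, 0.561 and 0.577). Mpo was nearest to Cxcl13, Trem2 and Fpr1 (0.375, 0.382 and 0.398), Retnlg to Mmp12, Nupr1 and Mt2 (0.206, 0.269 and 0.410), and Csf3r to Ccdc80, C1qc and Adgrg3 (0.086, 0.132 and 0.145). Several of these are macrophage genes, among them Trem2, Mmp12 and C1qc. Cxcr2 was nearest to Peg3, Jag1 and Zbtb3 (0.220, 0.227 and 0.323), of which Jag1 is a Notch ligand of ECs.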

How the data were processed

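Libraries were made from poly(A)-selected RNA of the cells described as peritoneal ECs, 3 from the saline group and 3 from the PD fluid group. The authors deposited read counts per gene and mouse, without normalization, with FPKM values that the authors computed. Their group mean FPKM, log2 ratio, p-value and FDR columns in the deposited table were not used, and every column of sample values could be matched to a label. The submitters' processing notes name fastp 0.18.0, Bowtie2 2.2.8, HISAT2, StringTie 1.3.1 and RSEM. The genome build and the strand setting of the counting are not given in the sources used here, so positions are those of GRCm38 with GENCODE M21, matched by Ensembl identifier.

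Counts were filtered with filterByExpr, scaled by TMM and tested with edgeR 4.0.16 (quasi-likelihood, no covariate, Benjamini-Hochberg over 14005 genes, threshold 0.05) in R 4.3.3. Alternatives used DESeq2 1.42.0, limma-voom (limma 3.58.1), other scalings, no filter, a replicate block and leaving out each mouse. The script was tested on simulated data. FPKM served only to compare levels between genes, so no test rests on it except 3 within-mouse ratios. A gene at 3 counts or fewer counted as being at the detection floor. Intervals are at 95%. Those on ratios of summed counts cover counting error only, since reads carried no molecular identifiers, and that on the Cxcr2 fold change is from the edgeR fit and includes the spread between mice.

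All 10 genes are named, with up to 4 genes from each further list (the largest changes among those called with a mean of at least 10 counts), defining genes at the floor, and the 3 nearest profiles. Genes named beyond these were chosen after their values were seen. The gene counted as lower in the surface and adhesion lists is not reported here by name. The 10 genes and the lists were chosen with earlier results of these data known. Pairs of replicate libraries differed by more than sampling noise (chi-square per degree of freedom from 6.46 to 17.8). Nothing in the labels ties mice of the groups together.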

Additional observations from a re-analysis of the deposited data

How the results depend on the processing

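A set of 9 genes was higher with PD fluid under each of the 14 alternatives run, and none was lower except that 1 (Cxcr2) was lower with scaling to 12 endothelial genes. Cxcr2 took the opposite sign to its 0.05 with endothelial scaling (-0.65) and without saline mouse 2 (-0.082), saline mouse 3 (-0.061) or PD mouse 3 (-0.027), and ranged from -0.082 to 0.317 when a mouse was left out; the cause was not tested. Ltf was 12.74 without saline mouse 1 against 8.90, since the remaining saline counts were 0. Of 140 fold changes of the 10 genes under alternatives, 136 kept their direction and side of the threshold.

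Deviations of same-numbered mice from their group means correlated at r = 0.105, 0.041 and -0.173 for numbers 1, 2 and 3. Those of differently numbered mice ran from -0.271 to 0.23. With 3 mice per group these values cannot decide whether same-numbered mice shared a batch. With the replicate block, 9 of the 10 genes were higher and 0 lower, and Cxcr2 was 0.07. Over all genes the block gave 4242 higher and 3667 lower, against 4359 and 3887. Scaling to endothelial genes gave 1695 higher and 8976 lower, and scaling to pan-leukocyte genes 8381 and 698. Depth limits genes with 5 or fewer counts in each saline mouse, among them Camp, Ltf, Wfdc21, Cxcl3, Cxcl5, Prtn3, Ctsg, Mrgpra2b, Epx and Ly6g.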
